A study of Rattus norvegicus with 29 samples.

Results

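HIF-2 alpha, encoded by Epas1, and 8 genes known as targets of hypoxia-inducible factors were followed in the duodenum of rats after bariatric surgery: Egln3, Ankrd37, Adm, Ndrg1, Pgk1, Bnip3l, Car9 and Stc1. They were picked by symbol with earlier results of these arrays known, so their differences after surgery are given as a description, without a test. Each of the 9 had 1 row in the deposited table, and they are 9 of the 14557 genes tested. The 29 animals were male wild-type Long-Evans rats of 8 to 10 weeks, kept under specific pathogen-free conditions and given a liquid diet from the day before surgery, with 1 array per rat. Roux-en-Y gastric bypass (RYGB, 6 rats), which leads food past the duodenum, had a sham operation of its own (5 rats). Vertical sleeve gastrectomy (VSG, 6 rats), in which about 80% of the stomach was transected, had 2 controls: a sham operation in which the stomach was pressed with blunt forceps along the line of the cut (6 rats), and the same sham with paired feeding (pair-fed sham, 6 rats). RYGB had no pair-fed control, and the sources used here do not state the time between surgery and sampling. All values are log2 expression values from RMA, so a step of 1 is a doubling. Levels of different genes come from different probes and are not compared with each other.

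Hypoxia-inducible factors pair an oxygen-regulated alpha subunit with the constant partner Arnt and bind DNA at a short core motif. In oxygenated cells prolyl hydroxylases, the products of the Egln genes, mark the alpha subunit for Vhl and breakdown, a reaction that needs oxygen, iron and 2-oxoglutarate. The alpha subunit is thus set largely at the protein level, which arrays do not measure. In the duodenum HIF-2 alpha is known for switching on genes of iron absorption when iron is short.

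The core motif is ACGTG, or GCGTG in its other common form. Promoters in RefSeq, from 250 bases before to 50 bases after the gene's start on assembly GRCr8, were at hand for 5 of the 9 genes: Epas1, Egln3, Ankrd37, Adm and Car9. Those of Ankrd37, Car9 and Egln3 are shown because they hold the most core motifs of the 5, a single one and none. Capitals mark ACGTG or GCGTG on the given strand and their reverse complements CACGT and CACGC for the other strand. Ankrd37 lies at chr16:53001257-53001556 (plus strand), Car9 at chr5:62558774-62559073 (plus strand) and Egln3 at chr6:77410966-77411265 (minus strand).
Ankrd37: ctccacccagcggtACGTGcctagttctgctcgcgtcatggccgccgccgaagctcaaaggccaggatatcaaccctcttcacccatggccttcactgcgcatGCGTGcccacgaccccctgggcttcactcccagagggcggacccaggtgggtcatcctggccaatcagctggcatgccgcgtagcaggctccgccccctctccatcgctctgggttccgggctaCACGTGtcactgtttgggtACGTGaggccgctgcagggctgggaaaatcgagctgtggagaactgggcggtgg
Car9: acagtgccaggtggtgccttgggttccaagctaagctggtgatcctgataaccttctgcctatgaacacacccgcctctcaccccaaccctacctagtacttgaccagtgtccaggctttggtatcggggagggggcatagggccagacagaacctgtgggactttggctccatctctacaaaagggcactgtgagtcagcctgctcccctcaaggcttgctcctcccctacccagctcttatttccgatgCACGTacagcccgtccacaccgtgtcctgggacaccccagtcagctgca
Egln3: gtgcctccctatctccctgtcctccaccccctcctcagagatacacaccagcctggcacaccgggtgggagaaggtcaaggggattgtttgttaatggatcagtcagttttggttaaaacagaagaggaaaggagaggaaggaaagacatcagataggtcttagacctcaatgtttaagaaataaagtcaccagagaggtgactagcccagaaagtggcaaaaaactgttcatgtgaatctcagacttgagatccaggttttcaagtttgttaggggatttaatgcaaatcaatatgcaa
The Ankrd37 window held 4 ACGTG matches over both strands, of which 2 overlap as CACGTG at positions -23 and -22, and 1 GCGTG match at position -147, counted with -1 as the base before the start. The Car9 window held 1 ACGTG match on the other strand, starting at position 2. The windows of Epas1, Egln3 and Adm held neither form, which says only that these letters are not in these 300 bases. Of 12573 promoters of tested genes (several for some genes), 21.4% held ACGTG on either strand, 37.7% held GCGTG, and 2.26% held at least 3 ACGTG matches. A match is a string of letters and not a measured binding site.

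Of 9 measured enterocyte markers, 7 (Vil1, Alpi, Fabp1, Fabp2, Anpep, Slc5a1 and Apoa4) lay between 9.39 and 12.06 on all 29 arrays, while array medians over all rows were 2.80 to 2.97. The other 2 were lower: Lct, which encodes lactase, ranged from 5.44 to 9.66 and the transcription factor gene Cdx1 from 3.35 to 4.39. Anpep was called higher after RYGB (0.35 ± 0.08, limma adjusted p = 0.0165), and Lct read -1.23 ± 0.38 after VSG against its sham (limma adjusted p = 0.242). The exocrine pancreas, which adjoins the duodenum, was represented very unevenly: the mean of 11 measured acinar markers, of 16 listed, ran from 3.01 to 9.59 in RYGB, 2.63 to 6.36 in its sham, 5.36 to 9.13 in VSG, 2.70 to 8.99 in the VSG sham and 2.53 to 9.89 in pair-fed sham. All 11 markers had a higher mean after each operation than in its sham, and 0 were called by limma (11 and 1 at an unadjusted p under 0.05). After RYGB the mean of 8 fibroblast markers was 6.26 against 6.61 in the sham and that of 6 goblet cell markers 10.37 against 10.73. In each list 1 gene was called lower. Of the fibroblast markers 0 had a difference above 0, with a median of -0.36. The goblet cell markers were uneven: the lowest difference was -2.01, the median was -0.10 and 2 of 6 were above 0. The part of these cells in the results was not tested beyond the values given beside them.

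Epas1, the factor itself, was higher after both operations. After RYGB its log2 level was 9.15 at the lowest, 9.41 at the median and 9.58 at the highest, against 9.12, 8.99, 9.12, 8.96 and 8.98 in the 5 sham rats. All 6 RYGB rats lay above all 5 sham rats, although the lowest of them, replicate 4, did so narrowly. The difference was 0.37 ± 0.09 (log2, SE, n = 6 and 5), or 1.29-fold. After VSG the lowest, median and highest values were 9.21, 9.43 and 9.51, against 8.76, 8.85 and 9.04 in the sham and 8.83, 9.12 and 9.18 in pair-fed sham. Every VSG rat thus lay above every rat of both control groups. VSG exceeded its sham by 0.50 ± 0.09 (1.42-fold) and pair-fed sham by 0.30 ± 0.09 (1.24-fold), values that share the same 6 VSG arrays. In whole tissue, more cells of a type and more RNA per cell cannot be told apart.

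Egln3 encodes the prolyl hydroxylase PHD3, itself induced by hypoxia-inducible factors and acting back on them. Its level after RYGB was 7.39 at the lowest, 7.96 at the median and 8.38 at the highest, while the 5 sham rats read 6.64, 6.17, 6.61, 6.49 and 6.11. The gap between the groups was wide: the lowest RYGB rat stood well above the highest sham rat, and the mean difference was 1.53 ± 0.16 (2.89-fold). VSG rats ranged from 6.24 through a median of 6.77 to 7.27, VSG shams from 6.09 through 6.38 to 6.62, and pair-fed shams from 6.07 through 6.22 to 6.49. Of the 6 VSG rats, 5 were above the highest rat of either control group, and replicate 6 was inside both ranges. The VSG difference was 0.38 ± 0.15 against the sham and 0.53 ± 0.15 against pair-fed sham. The RYGB effect exceeded the VSG effect by 1.15 ± 0.22.

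Pgk1, the glycolytic enzyme phosphoglycerate kinase, stood at 9.52, 9.89 and 10.13 (lowest, median, highest) after RYGB. The sham rats read 9.21, 9.34, 9.11, 9.04 and 9.05, all below every RYGB rat, and the difference was 0.71 ± 0.12 (1.64-fold). After VSG it stood at 9.21, 9.47 and 9.59, against 8.69, 9.01 and 9.28 in the sham and 8.63, 9.08 and 9.22 in pair-fed sham. In each case 5 of 6 VSG rats were above the highest control, with differences of 0.44 ± 0.12 and 0.43 ± 0.12. The RYGB effect minus the VSG effect was 0.27 ± 0.17.

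Ankrd37, an ankyrin-repeat protein induced in hypoxic cells, had the largest fold difference of the 9 genes after RYGB and also the widest scatter. RYGB rats spanned 4.43 to 6.93 with a median of 5.72, and sham rats read 2.98, 3.31, 3.67, 2.52 and 3.67. The groups did not overlap, and their means differed by 2.47 ± 0.37 (5.53-fold). The sham values lie around the median of the whole array, so this fold is less certain than those of genes at higher levels. VSG rats spanned 2.52 to 4.16 with a median of 3.80, sham rats 2.25 to 3.53 with a median of 2.72, and pair-fed rats 2.42 to 3.94 with a median of 3.05. These 3 groups overlapped broadly: 4 VSG rats were above the highest sham rat and 2 above the highest pair-fed rat. VSG differed from sham by 0.80 ± 0.35 and from pair-fed sham by 0.41 ± 0.35, and the RYGB effect was larger than the VSG effect by 1.67 ± 0.51.

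Ndrg1, a stress-responsive gene that hypoxia induces, was higher after each operation, with fold values close to each other. Its level was 8.60, 8.85 and 9.28 (lowest, median, highest) after RYGB, against 8.27, 7.85, 8.38, 8.17 and 8.19 in the sham rats. It was 8.44, 8.86 and 8.95 after VSG, against 7.83, 7.93 and 8.39 in the sham and 7.87, 8.22 and 8.49 in pair-fed sham. Neither surgical group overlapped its own sham, and 1 VSG rat, replicate 4, fell within the pair-fed range. RYGB differed from its sham by 0.72 ± 0.14 (1.65-fold), VSG from its sham by 0.74 ± 0.13 (1.67-fold) and VSG from pair-fed sham by 0.59 ± 0.13 (1.50-fold). The difference between the RYGB and VSG effects was -0.02 ± 0.19, with a 95% interval from -0.41 to 0.37.

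Bnip3l encodes a receptor that marks mitochondria for removal by autophagy. RYGB rats ranged from 8.08 through a median of 8.40 to 8.74, and sham rats read 7.55, 7.69, 8.46, 7.92 and 7.68. Sham replicate 3, at 8.46, stood above 4 of the 6 RYGB rats, so the groups overlapped, and the difference was 0.53 ± 0.14 (1.44-fold). The medians of VSG, its sham and pair-fed sham were 7.75, 7.68 and 7.73, and the VSG rats fell on both sides of their controls. The VSG differences were 0.01 ± 0.14 and 0.00 ± 0.14, and the RYGB effect minus the VSG effect was 0.52 ± 0.20.

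Adm and Stc1, which encode secreted factors, differed after different operations: Adm was higher after RYGB and Stc1 after VSG. Adm encodes adrenomedullin, a vasodilator peptide. Its level after RYGB was 4.80 in replicate 4, 6.02 at the median and 6.71 at the highest, against 4.79, 4.26, 4.64, 4.80 and 4.36 in the sham rats. Thus 5 RYGB rats were clear of the shams and replicate 4 was level with the highest of them. The difference was 1.37 ± 0.24 (2.58-fold), and 1.60 without replicate 4. VSG rats, at 4.59, 4.65 and 5.05 (lowest, median, highest), lay within the sham range of 3.72 to 5.00 except for replicate 1, and wholly within the pair-fed range of 4.26 to 5.13. Their differences were 0.37 ± 0.22 and 0.11 ± 0.22.

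Stc1 encodes stanniocalcin, a glycoprotein hormone. It was low after RYGB, at 2.23, 2.78 and 2.98 (lowest, median, highest), and the sham rats read 2.97, 2.76, 2.76, 3.39 and 2.35. The groups overlapped and differed by -0.15 ± 0.21. After VSG it ranged from 2.80 through 3.82 to 4.30, against 2.57, 2.78 and 3.17 in the sham and 2.75, 2.96 and 3.68 in pair-fed sham. All VSG rats but replicate 5 exceeded the sham rats, and 3 of 6 exceeded the highest pair-fed rat. The differences were 0.92 ± 0.20 (1.90-fold) and 0.68 ± 0.20 (1.60-fold), and the RYGB effect minus the VSG effect was -1.08 ± 0.30. Like Ankrd37, Stc1 read near the array median in the control groups.

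Car9 encodes a membrane carbonic anhydrase that hypoxia induces in many tissues. It stood at 8.08, 8.43 and 8.62 (lowest, median, highest) after RYGB, against 8.30, 8.18, 8.36, 8.50 and 7.71 in the sham rats, a difference of 0.18 ± 0.19 between overlapping groups. After VSG it stood at 8.02, 8.59 and 8.73, against 7.34, 7.96 and 8.21 in the sham and 7.49, 7.99 and 8.83 in pair-fed sham. In VSG 5 of 6 rats were above the highest sham rat and none above the highest pair-fed rat, with differences of 0.63 ± 0.18 (1.55-fold) and 0.51 ± 0.18 (1.42-fold).

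**Figure D1:**
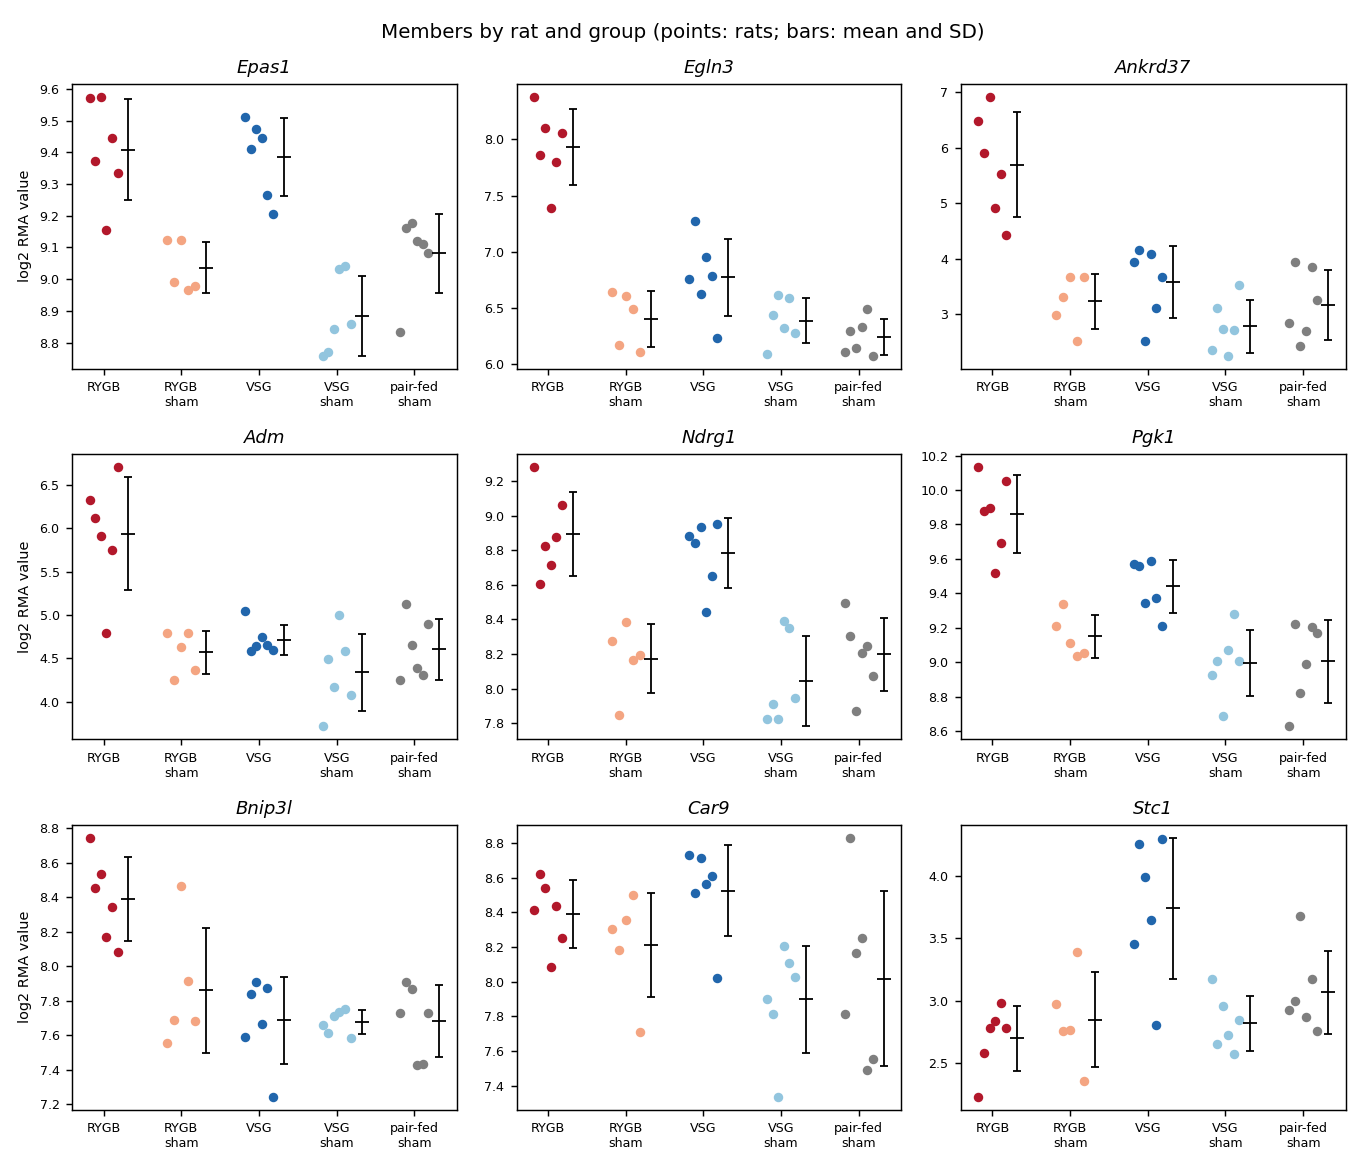
Each panel plots 1 gene's log2 RMA value (vertical axis) in every rat (points) of the 5 groups (horizontal axis), with group means and SD. Egln3, Ankrd37 and Adm stand highest after RYGB, Epas1 and Ndrg1 stand above the shams after both operations, and Stc1 stands highest after VSG.

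Counted with limma at an adjusted p under 0.05 (Benjamini-Hochberg over all 14557 genes), RYGB against its sham called 7 of the 9 genes higher, all but Car9 and Stc1. The same call was made for 1.26% of all genes in that direction and 2.64% in either. For 5 of the 9, Epas1, Egln3, Ankrd37, Ndrg1 and Pgk1, all RYGB rats lay above all sham rats, as they did for 1.39% of all genes. VSG against its sham called 3 of the 9 higher, Epas1, Ndrg1 and Stc1, where 0.151% of all genes were called higher. Epas1 and Ndrg1 did not overlap there, against 0.501% of all genes. VSG against pair-fed sham called Ndrg1, where 0.261% of all genes were called higher, and had no overlap for Epas1, against 0.495%. The genes were chosen with these comparisons known, so nothing is read from the counts. The median log2 difference of the 9 genes was 0.71, 0.50 and 0.43 in these comparisons in turn, and that of all genes was 0.00, -0.01 and -0.02.

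Several calls rested on the full set of arrays. Bnip3l after RYGB lost its call without any 1 of RYGB replicates 1, 2 or 3 or sham replicates 1, 2, 4 or 5, at 0.45 to 0.54, and Epas1 without either of RYGB replicates 1 and 3 or of sham replicates 2 and 4, at 0.34 to 0.36. Stc1 after VSG lost its call without any 1 of the 12 arrays other than VSG replicate 5, at 0.81 to 0.99. Ndrg1 against pair-fed sham lost its call without VSG replicate 1, 2, 3 or 6 or pair-fed replicate 3, 4, 5 or 6, at 0.52 to 0.60. With the pancreas mean as a covariate the RYGB differences were 0.42 for Epas1, 1.60 for Egln3, 2.74 for Ankrd37, 1.37 for Adm, 0.61 for Ndrg1, 0.75 for Pgk1 and 0.55 for Bnip3l. The VSG differences against its sham were then 0.53 for Epas1, 0.68 for Ndrg1 and 0.95 for Stc1. The covariate fit called 6 of the 9 genes after RYGB and 1, Epas1, after VSG. Without the 9 arrays whose pancreas mean was above 8, the fit called 6 after RYGB. After VSG it called 0 of the 9 and 0 of all genes (limma, 1032 genes at an unadjusted p under 0.05), with Epas1 at 0.57, Ndrg1 at 0.67 and Stc1 at 0.95. RYGB replicate 5 had a pancreas mean of 3.01, within the sham range, and read 9.44 for Epas1, 7.80 for Egln3, 5.52 for Ankrd37, 5.75 for Adm, 8.88 for Ndrg1 and 9.69 for Pgk1, each above the highest sham rat. For Bnip3l (8.34), Car9 (8.44) and Stc1 (2.98) it lay within the sham range. This rat also had the highest mean of Brunner gland and gastric markers of its group, 4.28 against 2.56 to 3.24 in the other RYGB rats. Its mean of smooth muscle markers, 8.59, was the highest of the group as well. A single rat is no test of the part of pancreas tissue in these differences, which was not tested.

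**Figure D2:**
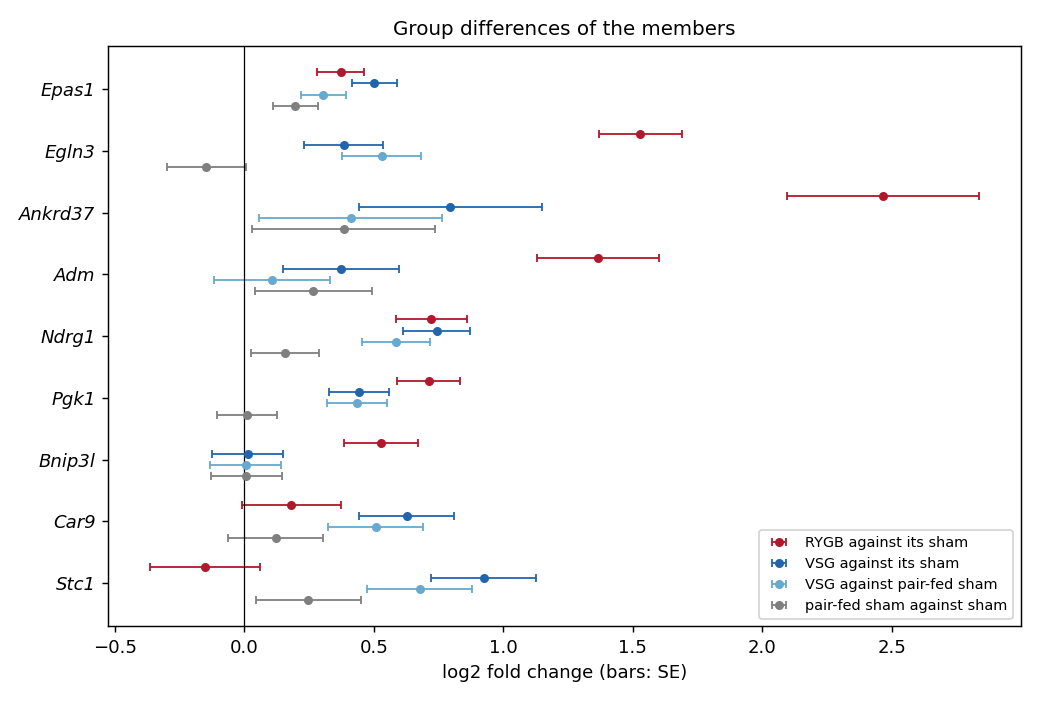
The log2 fold change (horizontal axis, bars are SE) of each of the 9 genes (vertical axis) is plotted for the RYGB comparison, for VSG set against each of its control groups, and for pair-fed rats set against sham rats without paired feeding. The RYGB values run from -0.15 for Stc1 to 2.47 for Ankrd37, and the VSG values against the sham from 0.01 for Bnip3l to 0.92 for Stc1.

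The RYGB effect minus the VSG effect was called for Egln3 alone of the 9, where 0.0893% of all genes were called higher and 0.392% in either direction. Adm, at 0.99 ± 0.33, Ankrd37 and Bnip3l also had the larger value after RYGB, and Stc1 after VSG, without reaching the threshold. Leaving out each of the 23 arrays in turn, 1 to 2 of the 9 genes were called. The Adm difference was called only without RYGB replicate 4, at 1.22, and that of Stc1 only without VSG replicate 5, at -1.26. The genes were chosen with this comparison known, so nothing is read from these calls.

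Whether food restriction alone moved these genes was asked by setting pair-fed sham rats against sham rats without paired feeding, a comparison in which every rat had the sham operation and none had RYGB or VSG. None of the 9 genes was called by limma, and none of the 14557 was (0% called, 811 genes at an unadjusted p under 0.05). Epas1 was the 1 gene of the 9 below that unadjusted level, higher in pair-fed rats by 0.20 ± 0.09 (limma, unadjusted p = 0.030, adjusted p = 0.866). The others lay between -0.15 for Egln3 and 0.38 for Ankrd37. The 2 sham groups, which differ in the operation they stand for, were compared as well: limma called 0 of the 9 genes and 0% of all genes, with 0 of the 9 and 757 of all genes at an unadjusted p under 0.05. All 9 differences of the VSG sham against the RYGB sham were below 0, from -0.45 for Ankrd37 to -0.01 for Egln3, with adjusted p from 0.966 to 0.994. A missed threshold does not show that these groups are alike.

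Beyond the 9 genes, 67 other genes of the pathway in 6 lists had a row of their own. Of these, 7 rose and 4 fell after RYGB, with a median of 0.04, and 56 were not called, where 1.26% of all genes rose and 1.38% fell. After VSG, 4 rose against the sham and 2 against pair-fed sham, where 0.151% and 0.261% of all genes rose, and none of the 67 fell. In both comparisons among sham-operated groups 0 were called, with 4 and 3 at an unadjusted p under 0.05 (limma). The lists were drawn up with earlier results of these arrays known. Nothing is therefore read from their counts, and the p-values of their genes are given as a description.

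Among 12 HIF subunits, oxygen sensors and cofactors, 0 were called by limma after RYGB, with 3 at an unadjusted p under 0.05, and 0 after VSG, with 1. Arnt, the partner of HIF-2 alpha, read 0.04 ± 0.11 after RYGB and -0.10 ± 0.11 after VSG. Egln2, another prolyl hydroxylase, read 0.23 ± 0.11 and 0.15 ± 0.10, and Hif1an, which blocks the factors' transactivation, 0.21 ± 0.18 and 0.13 ± 0.17. Vhl, which binds the hydroxylated alpha subunit, read -0.47 ± 0.22 and 0.45 ± 0.21. No gene in this list reached a limma adjusted p under 0.05 after either operation. Hif1a and Egln1 lacked a single-gene row and are not analysed here.

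Of 11 genes of glucose uptake and glycolysis, 0 were called after RYGB, with 3 at an unadjusted p under 0.05 (limma), and 1 rose after VSG. That gene was Pfkl, the liver-type phosphofructokinase, at 0.53 ± 0.10 against the VSG sham (limma adjusted p = 0.026). Its RYGB value was 0.38 ± 0.11 (limma adjusted p = 0.0552). The glucose transporter Slc2a1 read 0.15 ± 0.13 after RYGB and 0.21 ± 0.12 after VSG. The Pfkl call ended without VSG replicate 1, 2 or 3 or sham replicate 1 or 4, at 0.48 to 0.55.

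In the list of mitochondria, mitophagy and stress, 1 of 9 genes rose and 1 fell after RYGB, and 0 were called after VSG (1 at an unadjusted p under 0.05). Ero1a, which oxidises protein thiols in the endoplasmic reticulum, rose by 0.34 ± 0.09 (limma adjusted p = 0.0373). Bhlhe40, a transcriptional repressor that hypoxia usually induces, fell by 0.49 ± 0.11 (limma adjusted p = 0.00641), a call that ended with the pancreas mean as a covariate (-0.46, limma adjusted p = 0.0542). Bnip3, the close relative of Bnip3l, read 0.27 ± 0.18 after RYGB and 0.28 ± 0.17 after VSG and was not called. The Ero1a call ended when any of RYGB replicates 1, 3 and 6 or of sham replicates 1, 2, 4 and 5 was left out, at 0.30 to 0.35. It also ended with the pancreas mean as a covariate (0.28, limma adjusted p = 0.249) and without the 9 arrays of high pancreas mean (0.27). The same held with arrays centred on their median (0.35), with the arrays of the contrast alone (0.34) and with the replicate block (0.32). None of 14 vascular and secreted factors and adrenomedullin receptors was called after either operation (limma, 2 and 1 at an unadjusted p under 0.05). The receptor of adrenomedullin, Calcrl, read -0.21 ± 0.14 after RYGB and its partner Ramp3 0.04 ± 0.16.

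The list of matrix, pH, lipid and demethylase genes split after RYGB, with 2 of 13 higher and 3 lower. P4ha1, a subunit of the collagen prolyl hydroxylase, rose by 1.01 ± 0.19 (2.01-fold, limma adjusted p = 0.00202). Kdm3a, a histone demethylase, rose by 0.68 ± 0.12 (limma adjusted p = 0.00136). The genes that fell belong to lipid handling: Angptl4, an inhibitor of lipoprotein lipase, by 2.63 ± 0.21 (limma adjusted p = 1.36e-09), Plin2, a coat protein of lipid droplets, by 1.54 ± 0.12 (limma adjusted p = 1.36e-09) and Insig2, which restrains sterol synthesis, by 0.44 ± 0.11 (limma adjusted p = 0.0264). The first and second of these are known targets both of hypoxia-inducible factors and of the fatty acid sensing PPAR receptors. The Insig2 call ended without either of RYGB replicates 4 and 6 or of sham replicates 1 and 3, at -0.42 to -0.36. It also ended with the pancreas mean as a covariate (-0.39, limma adjusted p = 0.152) and without the 9 arrays of high pancreas mean (-0.36). The same held with the arrays of the contrast alone (-0.44) and with the replicate block (-0.41). After VSG 0 of the 13 were called (limma, 2 at an unadjusted p under 0.05), with Angptl4 at -0.23 ± 0.20 and Plin2 at 0.10 ± 0.12. The difference between the operations was itself called, where 0.302% of all genes were called lower, for Angptl4 (-2.41 ± 0.29, limma adjusted p = 2.11e-05), Plin2 (-1.64 ± 0.17, limma adjusted p = 1.24e-06) and Bhlhe40 (-0.68 ± 0.15, limma adjusted p = 0.0209). The Bhlhe40 call ended without RYGB sham replicate 4 (-0.65), with arrays centred on their median (-0.68), with the arrays of the contrast alone (-0.68), with the replicate block (-0.69) and without the 9 arrays of high pancreas mean (-0.82), at limma adjusted p from 0.0506 to 0.0602.

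In the iron absorption list 4 of 8 genes rose after RYGB, 3 after VSG against its sham and 2 against pair-fed sham. The same call was made for 1.26%, 0.151% and 0.261% of all genes in turn. The list was drawn up with earlier results of these arrays known, so nothing is read from these counts. Tfrc, the transferrin receptor, rose by 1.15 ± 0.12 after RYGB (limma adjusted p = 2.85e-07) and by 0.63 ± 0.11 after VSG (limma adjusted p = 0.0129). Cybrd1, the iron reductase of the brush border, rose by 1.17 ± 0.29 (limma adjusted p = 0.0225) and 1.63 ± 0.28 (limma adjusted p = 0.00911). The exporter of heme and related molecules Abcg2 rose by 1.28 ± 0.17 (limma adjusted p = 2.05e-05) and 0.82 ± 0.16 (limma adjusted p = 0.0297). Slc40a1, the iron exporter ferroportin, rose by 0.69 ± 0.16 after RYGB (limma adjusted p = 0.00956) and read 0.57 ± 0.15 after VSG (limma adjusted p = 0.137). Heph, the ferroxidase that works with it, read 0.19 in both and was not called. Against pair-fed sham, VSG rats were higher in Cybrd1 by 1.52 ± 0.28 (limma adjusted p = 0.0099) and in Tfrc by 0.83 ± 0.11 (limma adjusted p = 5.31e-04). The Cybrd1 call after RYGB ended without sham replicate 2, 4 or 5, at 0.96 to 1.12, and with the pancreas mean as a covariate (1.12, limma adjusted p = 0.114). The Abcg2 call after VSG ended without VSG replicate 1, 2 or 3 or sham replicate 2, 3 or 4, at 0.70 to 0.82. It also ended with the pancreas mean as a covariate (0.83, limma adjusted p = 0.065). Slc11a2 likewise is not analysed here.

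**Figure D3:**
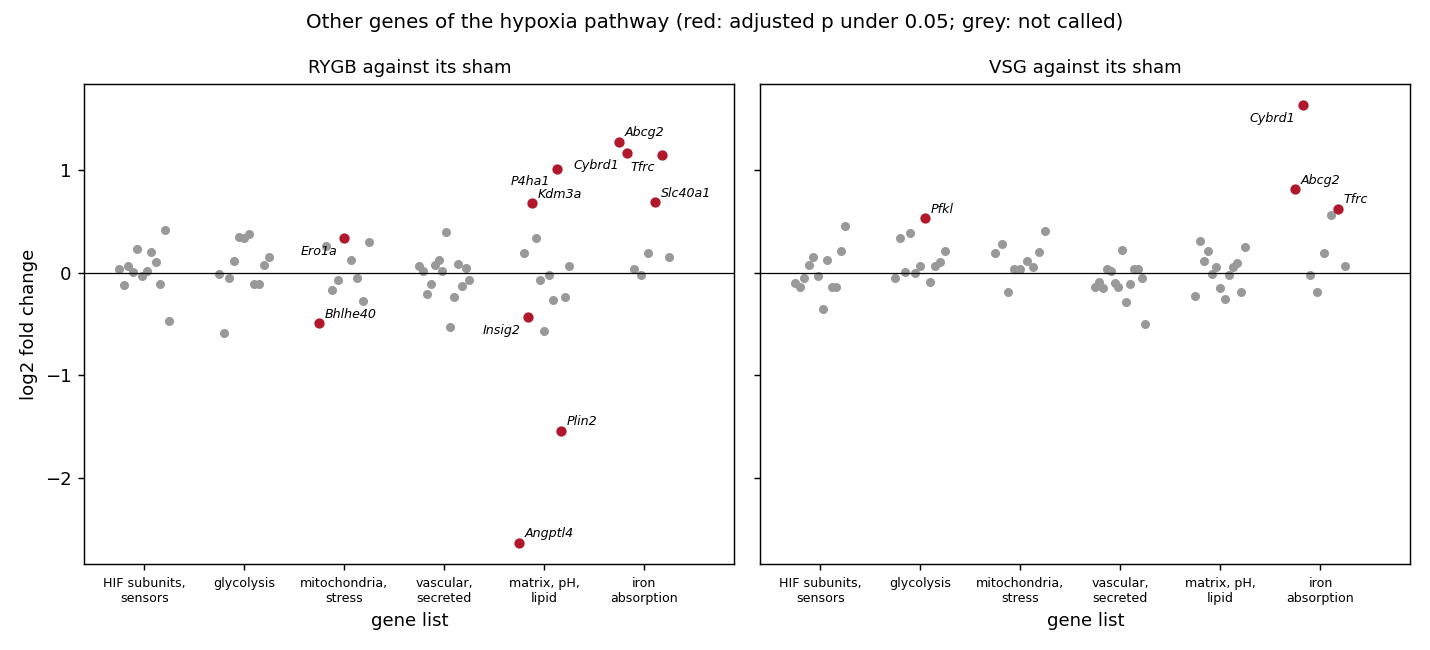
The log2 fold change of each of the 67 other pathway genes (points, vertical axis) is plotted by list for RYGB and for VSG against their shams, red where the adjusted p was under 0.05. The iron absorption list holds 4 red points after RYGB and 3 after VSG, and Angptl4 (-2.63) and Plin2 (-1.54) lie far below 0 after RYGB.

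The spread between rats of a group differed among the 9 genes. The pooled within-group SD was 0.127 for Epas1, smaller than that of all but 3.74% of genes, and 0.664 for Ankrd37, larger than that of 99.3% of genes. Adm, at 0.415, was above 92.7% of genes, and the median gene had 0.256. Group membership took up from 37.7% of the variance for Car9 to 86.7% for Egln3 over the 29 rats, against a median of 16.5% over all genes. The genes were chosen with their group differences known, so nothing is read from this gap.

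Within groups the genes varied together loosely. The deviations of each gene from its group mean were correlated over the 29 rats, as a description of rats that share tissue, array run and normalization. Over the 36 pairs the median Pearson r was 0.26, and 27 pairs were above 0. No such value over pairs of other genes is given here, so whether this is particular to these genes was not tested. The highest pairs were Epas1 with Pgk1 (r = 0.62, Spearman's rho 0.50), Epas1 with Egln3 (r = 0.59, rho 0.50), Adm with Pgk1 (r = 0.58, rho 0.53) and Epas1 with Adm (r = 0.56, rho 0.50). Without the 2 rats farthest from the median of the first gene these were 0.43, 0.50, 0.46 and 0.37. In the 17 sham rats alone they were 0.58, 0.45, 0.39 and 0.62. Stc1 was below 0 with each of the other 8 genes, from -0.31 to -0.03. In the 17 sham rats alone it was above 0 with Car9 (0.22), Bnip3l (0.13) and Egln3 (0.12). With the other genes it stayed below 0 there, down to -0.48 with Ankrd37.

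**Figure D4:**
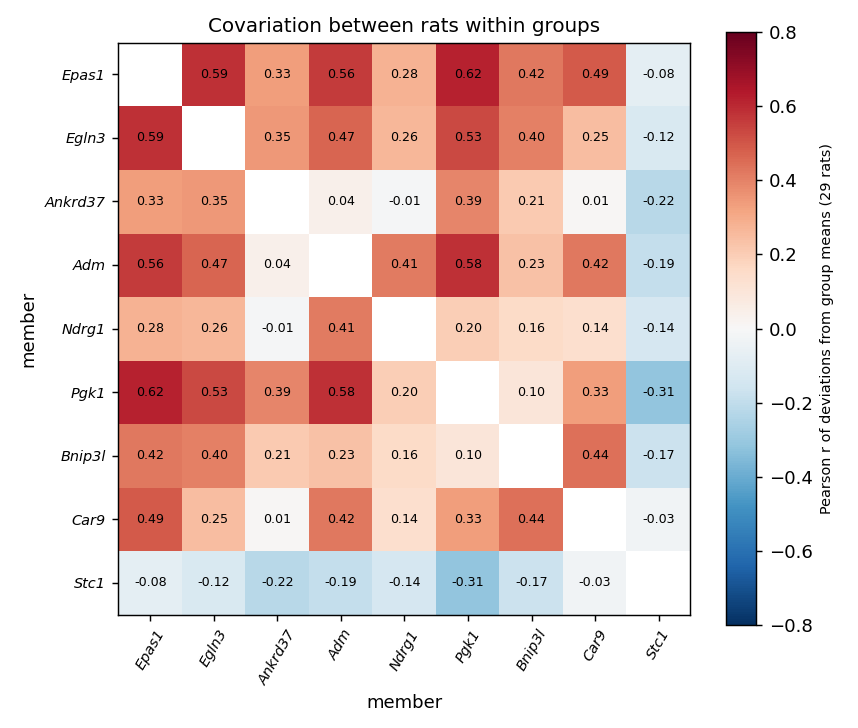
Each cell gives the Pearson r between 2 genes (rows and columns) of their deviations from the group means over 29 rats, with colour from -0.8 to 0.8. The darkest red cell is that of Epas1 with Pgk1, at 0.62, and the Stc1 row is blue throughout.

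Single rats weighed on this covariation: the median r was 0.18 without RYGB replicate 1 and 0.19 without RYGB replicate 4. RYGB replicate 4 was the lowest of its group for 5 of the 9 genes, Epas1, Egln3, Adm, Pgk1 and Car9. It also had the group's highest pancreas mean, 9.59, and its highest mean of 7 macrophage and neutrophil markers, 5.34 against 4.21 to 4.52 in the other RYGB rats. VSG replicate 6 was the lowest of its group for Epas1, Egln3, Pgk1, Bnip3l and Car9 but the highest for Ndrg1 and Stc1, with the group's highest pancreas mean, 9.13. RYGB replicate 1 was the highest of its group for 4 genes and had the lowest mean of 8 fibroblast markers, 5.64. Over the 29 rats the mean deviation of the 9 genes had r = -0.55 (rho -0.39) with the fibroblast mean, -0.51 (rho -0.24) with the macrophage and neutrophil mean, and -0.15 (rho -0.13) with the pancreas mean. The part of these cell types in the covariation was not tested.

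The genes of the whole table whose deviations were most like those of a member over the 29 rats were Slc4a4 for Car9 (r = 0.85), Brd2 for Ndrg1 (r = 0.79), Uckl1 for Epas1 (r = 0.77), Pgk1's Eps8l2 (r = 0.74), Bnip3l's Ftmt (r = 0.74), Stc1's Hmgn1l1 (r = 0.73), Adm's Marchf8 (r = 0.72), Egln3's Sdcbp2 (r = 0.71) and Ankrd37's Ubxn8 (r = 0.66). Each was found as the highest value in a search over all other genes, so its size is no evidence of a relation.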

How the data were processed

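RNA from the duodenum of 29 rats was extracted with an RNeasy kit, amplified and labelled with Ovation PicoSL and Encore Biotin kits, and measured on Affymetrix arrays, per the labels' protocols. The deposited log2 values were made by the authors with RMA in Affymetrix Expression Console 1.3.0.187, per the submitters' processing notes. A genome build was not given in these sources. Of 36685 rows, 14824 had 1 gene symbol in the platform annotation, 829 had several and 21032 were not named here. The row with the highest mean stood for a gene, giving 14557 genes with no filter on low values. Symbols were updated through GRCr8 gene IDs, in which 154 were not found. No 2 arrays were copies (highest correlation 0.977). The number of arrays limits the precision.

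The 5 group means were fitted over all arrays in a limma model (3.58.1, R 4.3.3, lmFit and eBayes) that was first tested on simulated data. Two-sided p-values were adjusted by Benjamini-Hochberg over all genes. The labels call the samples biological replicates. The 9 members and all lists were chosen with earlier results of these data known. The members were named by symbol. From the pathway lists the text names every called gene. Of the uncalled genes named, Arnt, Hif1an, Vhl, Slc2a1 and Bnip3 were set in the plan, which was made with earlier results known. The other uncalled genes named were chosen after their values were seen. Replicate numbers were not taken as a pairing of the rats. Alternatives were a low-value filter, all rows, averaged rows, another prior, centring, quantile normalization, array weights, each contrast's arrays alone, the pancreas mean as a covariate, a replicate block and leaving out each array. Leaving out the 9 arrays with a pancreas mean above 8, the 17 sham arrays alone and dropping the 2 farthest arrays were added after seeing the data.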

Additional observations from a re-analysis of the deposited data

Results flagged for a closer look

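Single rats stood apart from the rest of their group in 3 of the 45 sets of a gene and a group, where chance gives about 1 in 20. Epas1 read 8.83 in pair-fed sham replicate 1, below the other 5 pair-fed rats. Adm read 5.05 in VSG replicate 1, above the other 5 VSG rats. Car9 read 8.02 in VSG replicate 6, below the other 5 VSG rats.

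For Egln3 the RYGB effect minus the VSG effect was 1.15, given as a description, since the gene was chosen with this value known. For 3 other pathway genes limma called the difference between the operations, with values of -0.68 (Bhlhe40), -2.41 (Angptl4) and -1.64 (Plin2). Their lists were drawn up with earlier results of these arrays known, so these values too are given as a description.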

How the results depend on the processing

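No difference of the 9 genes that was called turned direction under any alternative. Leaving out each array in turn, the members called ranged from 5 to 7 for RYGB against its sham, 2 to 3 for VSG against its sham, 0 to 2 for VSG against pair-fed sham and 1 to 2 for the RYGB effect minus the VSG effect. The other pathway genes called ranged from 9 to 12, 2 to 4, 2 to 3 and 2 to 3 in the same order, and both counts stayed at 0 in the comparisons among sham-operated groups. The median r between members ranged from 0.18 to 0.31.

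Fitting only the arrays of a contrast left 0 of 3 members by limma (7 members at an unadjusted p under 0.05) and 1 of 4 pathway genes for VSG against its sham, and 0 of 1 members (6 unadjusted) and 1 of 2 pathway genes for VSG against pair-fed sham. For RYGB against its sham this fit ended the calls of Epas1 (0.37) and Bnip3l (0.53), with 7 members at an unadjusted p under 0.05 (limma). The pancreas mean as a covariate left 7 of 11 pathway genes for RYGB, 1 of 3 members for VSG against its sham and 0 of 1 (6 unadjusted) against pair-fed sham. Leaving out the 9 arrays with a pancreas mean above 8 left 7 of 11 pathway genes for RYGB, 0 members (6 unadjusted) and 0 pathway genes (10 unadjusted) for VSG against its sham, and 0 members (5 unadjusted) and 1 pathway gene against pair-fed sham; it also leaves fewer rats. A trended and robust prior called 3 members against pair-fed sham (Epas1 and Pgk1 beside Ndrg1), and further quantile normalization called 2.

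Over all genes, RYGB against its sham called 385 genes, against 192 from its arrays alone, 205 with the covariate and 165 without the 9 arrays. VSG against its sham called 26, against 6, 7 and 0. VSG against pair-fed sham called 74, against 11, 46 and 6, 113 with the trended prior and 123 without the lowest genes. The RYGB effect minus the VSG effect called 57, against 16 without the 9 arrays. Apart from the smaller number of arrays where some were left out, the cause was not tested.

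Same-numbered rats of compared groups had a median r of 0.02 over 56 pairs of deviations, with 6 over 0.1, and 13 of 56 arrays correlated best with their own number, so the numbers are not taken as a pairing. With the replicate block, 7 members were called for RYGB, 2 for VSG against its sham, 0 against pair-fed sham (6 unadjusted) and 1 for the difference of the operations; the pathway genes called were 9, 4, 2 and 2.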
